A study of Mus musculus with 6 samples.

Results

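Potassium channel genes were examined in GFP-positive and GFP-negative cells sorted from cultures of adult mouse spinal cord neural stem cells. The members are the 94 genes of the count table whose symbol starts with Kcn, of 26264 genes in all, after 4 antisense or other noncoding names (Kcnq1ot1, Kcnd3os, Kcnmb4os1 and Kcnmb4os2) were left out. They were grouped by symbol into 7 classes: 17 of Kcna to Kcnd, 18 of Kcnf, Kcng, Kcnh, Kcns and Kcnv, 5 Kcnq, 15 Kcnj, 14 Kcnk, 12 of Kcnn, Kcnm, Kcnt and Kcnu, and 13 auxiliary or regulatory genes of Kcnab, Kcne, Kcnip and Kcnrg. The cells came from C57BL6J mice carrying a GFP reporter of Pdgfra, a platelet-derived growth factor receptor used to mark oligodendrocyte precursors, and were grown with EGF and FGF2. The labels give the genotype as PDGFRaGFP/- for the GFP-negative libraries and PDGFRaGFP/+ for the GFP-positive ones, and each group has 3 libraries. The libraries carry the numbers 314, 315 and 316, called replicates 1, 2 and 3, and each number occurs once in either group. The labels do not say whether a number stands for an animal, a culture or a day, so the p-values rest on a spread between samples that may be only technical. The labels give no promoter or line details for the reporter, so GFP stands here only for the sorted fluorescence.

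Potassium channels let potassium leave or enter cells along its gradient and set the resting potential. Voltage-gated channels open on depolarisation and carry A-type and delayed-rectifier currents, inward rectifiers (Kcnj) and tandem-pore leak channels (Kcnk) hold the membrane near the potassium potential, and calcium-activated channels (Kcnn, Kcnma1) follow intracellular calcium. In the oligodendrocyte lineage, precursor cells are known for large A-type and delayed-rectifier currents, while astrocytes are known for inward rectifiers that clear potassium from the extracellular space.

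Total counts per library lay between 31067850 and 45207335, and Kcn genes took between 0.177% and 0.194% of them. Pdgfra (Entrez 18595) was higher in GFP-positive cells, at 237, 205 and 245 CPM (counts scaled to library size with TMM factors) in replicates 1, 2 and 3, against 8.04, 19.3 and 13.9 CPM in GFP-negative cells (log2 fold change 4.06, SE 0.27, edgeR adjusted p = 1.28e-05). Of the short marker lists, all 9 oligodendrocyte precursor genes were higher, and all 8 astrocyte and all 5 neural stem cell genes were lower. The summed astrocyte markers lay between 3188 and 4027 CPM in GFP-negative and between 430 and 562 CPM in GFP-positive libraries. Their part in the results below was not tested, and in bulk RNA fewer cells of a type and less RNA per cell cannot be told apart. Of the neuronal list, 3 genes were higher (Snap25, Rbfox3 and Syt1), while Stmn2, Slc17a6 and Slc32a1 were at 0.255 CPM or less in every library. Of the 5 microglial markers, 1 passed the count filter (Tmem119, at most 2.52 CPM). Of the 4 endothelial markers, Flt1 was lower in GFP-positive cells, at 0.218 ± 0.165 against 3.72 ± 3.51 CPM (SD, n = 3). Pecam1 was not called, at 0.425 ± 0.158 against 0.389 ± 0.056 CPM (log2 fold change 0.13, edgeR adjusted p = 0.802). Cldn5 had no count, and Cdh5 was at 0.0648 CPM or less in every library. The mural markers other than Cspg4, which precursor cells also express, were at 0.446 CPM or less in every library.

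Both groups of cells carried a broad set of potassium channel transcripts, and every class held genes called higher and genes called lower in GFP-positive cells. The low-count filter left 56 of the 94 members. Of these, 16 were higher and 18 lower in GFP-positive cells at an edgeR adjusted p below 0.05 and 22 were not called. Those are 28.6% and 32.1% of the tested members, against 26.1% and 29.2% of all 14554 tested genes called higher and lower, and 60.7% of the members were called in either direction against 55.4% of all tested genes. Without a limit on the fold change, the members' shares were near that background. The median log2 fold change was -0.07 over the tested members and -0.006 over all tested genes. Past a log2 fold change of 1 there were 10 higher and 11 lower of the 56 tested members. Both are larger shares than the 6.07% and 12.3% of all tested genes that far higher and lower, and the difference was not tested. In 36 of the 56 tested members, among them all 34 called ones, the 3 libraries of one group lay above the 3 of the other, against 64.2% of all tested genes.

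**Figure D1:**
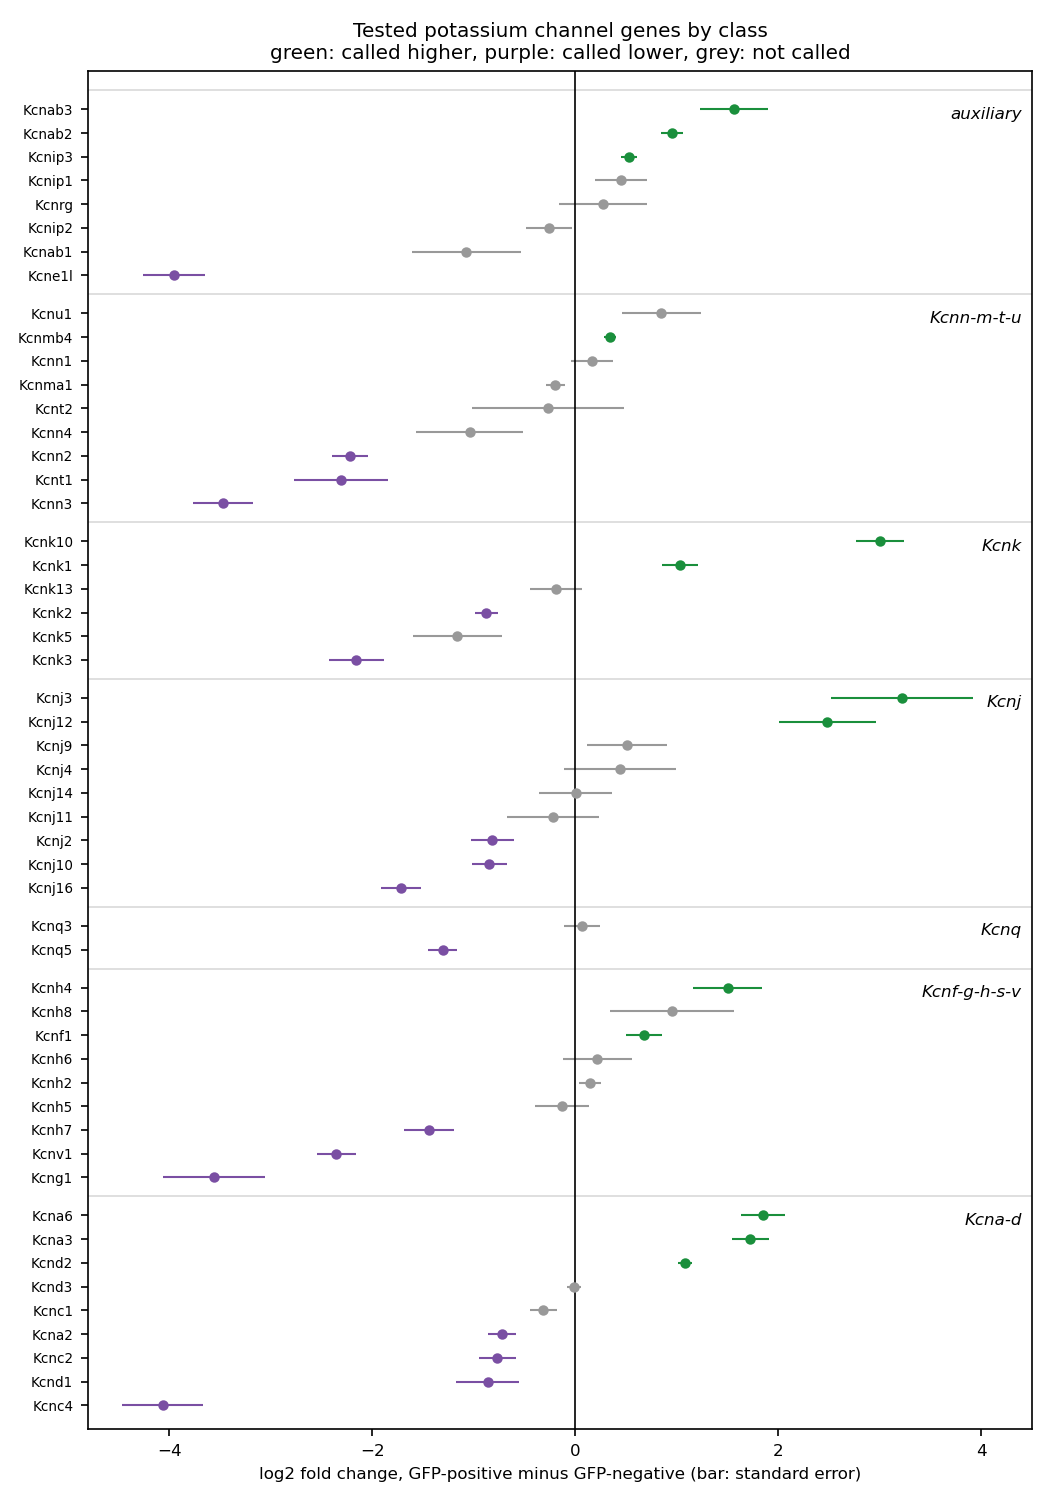
Log2 fold change (x axis, GFP-positive minus GFP-negative, bars show the standard error) of 52 tested Kcn genes, grouped by class (green, called higher; purple, called lower; grey, not called). The values drawn run from -4.06 for Kcnc4 to 3.22 for Kcnj3.

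The 38 members below the filter were scarce in both groups. Kcna10, Kcng4, Kcnk16 and Kcne3 had no count in any library, and 33 others reached at most 0.446 CPM. The remaining one, Kcna4, reached 2.26 CPM in a single library and is described with the replicate 2 libraries. Kcnj8, an inward rectifier subunit known from pericytes, had 17 counts over the GFP-negative libraries and 0 over the others. With 3 counts over the group taken as the floor, it was at least 7.07-fold lower in GFP-positive cells, a bound that covers counting error only. Kcnq1 stood at 0.0234 CPM per kb of exons or less in every library, while Kcnq1ot1, the antisense transcript of its locus, lay between 3.02 and 5.48 CPM per kb.

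Levels can be compared between genes only per length, here as CPM per kb of summed exons. The annotation used for the counting is not given, so the ranks and shares depend on the exon lengths taken here. On that scale Kcnip3 ranked first in both groups, at 115 ± 5.29 in GFP-positive cells, against 79.6 ± 7.96 CPM per kb in GFP-negative ones (SD, n = 3). Kcnd2, at 78.3 ± 3.96 CPM per kb, and Kcnj10, at 33.9 ± 3.59, followed in GFP-positive cells. In GFP-negative cells that order was exchanged, with Kcnj10 at 61.0 ± 15.3 and Kcnd2 at 37.0 ± 2.54 CPM per kb. Kcnd3 ranked 4 in GFP-positive cells, and Kcnj16 ranked 4 in GFP-negative and 8 in GFP-positive cells. Kcnj10 and Kcnd2 did not overlap in either group.

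The promoters of some members are given here because neighbouring genes and genes called in the same direction can be set side by side. Sequences are from RefSeq, build GRCm38.p6, and cover the 250 bases before the annotated start, 5′ to 3′ on the gene's own strand. The counts were made on mm39, so these positions belong to the reference table and not to the counting. Kcna3 and Kcna2 lie next to each other on chromosome 3 and were called in opposite directions, Kcna3 higher and Kcna2 lower, and Kcnj2 and Kcne1l were lower. Capitals mark matches, on either strand, to CAGCTG, an E-box hexamer, ACAAAG, a core met by Sox factors, or TATAAA, the TATA box.
Kcna3, chr3:107035912-107036161, plus strand: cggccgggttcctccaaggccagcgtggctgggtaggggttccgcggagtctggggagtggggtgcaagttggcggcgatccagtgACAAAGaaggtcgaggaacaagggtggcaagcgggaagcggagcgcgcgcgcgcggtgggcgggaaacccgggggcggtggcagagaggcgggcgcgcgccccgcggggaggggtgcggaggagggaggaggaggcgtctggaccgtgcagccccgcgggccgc
Kcna2, chr3:107101317-107101566, plus strand: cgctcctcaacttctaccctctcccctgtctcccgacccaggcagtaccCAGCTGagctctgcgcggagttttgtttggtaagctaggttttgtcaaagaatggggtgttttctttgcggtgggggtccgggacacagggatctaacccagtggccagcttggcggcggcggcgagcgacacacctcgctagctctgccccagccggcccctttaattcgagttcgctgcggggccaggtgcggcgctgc
Kcnj2, chr11:111065914-111066163, plus strand: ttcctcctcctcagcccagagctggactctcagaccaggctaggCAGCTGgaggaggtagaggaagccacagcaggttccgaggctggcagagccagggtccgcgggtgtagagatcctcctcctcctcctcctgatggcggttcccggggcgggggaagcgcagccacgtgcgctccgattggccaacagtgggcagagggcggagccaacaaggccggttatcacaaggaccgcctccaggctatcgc
Kcne1l, chrX:142306199-142306448, minus strand: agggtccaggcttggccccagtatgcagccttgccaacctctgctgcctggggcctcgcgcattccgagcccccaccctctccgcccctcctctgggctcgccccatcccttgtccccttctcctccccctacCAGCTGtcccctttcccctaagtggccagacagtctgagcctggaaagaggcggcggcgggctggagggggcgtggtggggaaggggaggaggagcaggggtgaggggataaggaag
The window of Kcna3 holds ACAAAG and those of Kcna2, Kcnj2 and Kcne1l hold CAGCTG. These printed windows do not stand for their groups. CAGCTG lay in 6 of the 11 lower genes with windows, and ACAAAG or its complement in 4 of the 12 higher ones.

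Windows were found for 69 of the 94 members. CAGCTG, which reads the same on both strands, lay in a window of 6 of the 11 lower genes with windows (Kcna2, Kcnc2, Kcne1l, Kcnj16, Kcnj2 and Kcnk2), 2 of the 12 higher genes, 3 of the 18 genes not called and 6 of the 28 untested ones, and in 14.7% of all 27025 genes with windows. Some genes have several starts, and a match in any window was counted. The 11 lower genes had 21 windows, the 12 higher genes 17, and all genes 32851, so the lower genes offered more sequence per gene and the shares are not directly comparable. ACAAAG or its complement lay in 4 of the 12 higher genes (Kcna3, Kcnab2, Kcnip3 and Kcnmb4) and 1 of the 11 lower genes, and in 18.6% of all genes. TATAAA or its complement was found for 0 of the 12 higher and 1 of the 11 lower genes, and for 14.3% of all genes. A match describes these letters in this window and is not a binding site.

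In the genome, 8 runs of members follow each other with no other protein-coding gene between them. In the run Kcna3, Kcna2 and Kcna10 on chromosome 3, the calls went in both directions and Kcna10 had no count. In the run Kcna5, Kcna1 and Kcna6 on chromosome 6, Kcna6 was higher and its neighbours were below the filter. The neighbours Kcnj16 and Kcnj2 on chromosome 11 were both lower, and of Kcnj9 and Kcnj10 on chromosome 1 only Kcnj10 was called.

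The Kcna to Kcnd genes encode the pore-forming subunits of the Shaker, Shab, Shaw and Shal channels. In this class, 5 of 11 tested genes were higher (among them Kcna3, Kcna6 and Kcnd2) and 4 lower (Kcna2, Kcnc2, Kcnc4 and Kcnd1). The shares of all tested genes were 26.1% higher and 29.2% lower. Kcnd2 (Entrez 16508), which forms A-type channels, stood at 418, 380 and 412 CPM in GFP-positive replicates 1, 2 and 3, against 178, 204 and 190 CPM in cells without GFP (log2 fold change 1.08, SE 0.07, edgeR adjusted p = 1.02e-05). The values were close within each group and did not overlap. Kcnd3, the other abundant Shal subunit, did not pass the test, at 198, 194 and 169 against 192, 194 and 178 CPM (log2 fold change -0.01, SE 0.07, adjusted p = 0.907). Kcnd3os, by its name a transcript of the opposite strand, was at 4.79 ± 0.62 against 5.03 ± 0.50 CPM (SD, n = 3), and with the strand setting of the counting not given, the reads of Kcnd3 and Kcnd3os cannot be told apart. Kcnd2 made up 79.9% ± 1.79 of the per-length level of the Kcnd genes in GFP-positive cells, against 64.9% ± 1.68 in GFP-negative ones (SD, n = 3). Kcnd1, the scarce member, was lower by test (log2 fold change -0.86, adjusted p = 0.0445), but lost the call with the replicate number as a block (adjusted p = 0.0626), and also in 8 of the 9 leave-out fits (of single libraries or replicate numbers).

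Of the Shaw genes, Kcnc4 (Entrez 99738), which forms fast inactivating channels, had the lowest fold change of all members, at 0.572, 0.640 and 0.762 CPM in cells with GFP, against 9.68, 6.31 and 17.2 CPM in cells without it (log2 fold change -4.06, SE 0.40, edgeR adjusted p = 7.97e-05). The GFP-negative libraries varied, and each lay far above the GFP-positive ones. Kcnc1, a fast delayed rectifier, missed the threshold (log2 fold change -0.31, adjusted p = 0.0809) and was lower with the replicate block (-0.30, adjusted p = 0.00698). It was also lower with DESeq2 (-0.31, adjusted p = 0.0474) and without replicate 2 (-0.21, adjusted p = 0.0239). The summed per-length level of the Kcnc genes was 27.3 ± 1.67 CPM per kb in GFP-positive cells, against 27.3 ± 3.04 in GFP-negative ones (SD, n = 3). Within it, Kcnc4 held 0.66% ± 0.09 against 11.2% ± 5.78.

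The Shaker genes also split. Kcna3 (Entrez 16491), a delayed rectifier also known from T cells, stood at 7.60, 6.09 and 6.26 against 2.12, 1.69 and 2.20 CPM (log2 fold change 1.73, SE 0.18, edgeR adjusted p = 1.08e-04). Kcna6 was higher too, at 34.2, 21.5 and 22.7 against 7.82, 5.64 and 8.30 CPM (log2 fold change 1.85, SE 0.21). Kcna2, a delayed rectifier of axons, was lower, at 57.9, 54.2 and 48.3 against 84.5, 73.3 and 107 CPM (log2 fold change -0.72, SE 0.13, adjusted p = 0.00233). In GFP-negative cells Kcna2 held 74.6% ± 2.61 of the per-length level of the Kcna genes, and in GFP-positive cells 36.2% ± 3.11, beside 34.8% ± 4.02 for Kcna6 and 28.1% ± 1.10 for Kcna3 (SD, n = 3). The exon lengths taken were 11906, 5945 and 1902 bases for Kcna2, Kcna6 and Kcna3. Before division by length, their GFP-positive means were 53.5, 26.1 and 6.65 CPM. Kcna1, another axonal subunit, had 4 counts in all GFP-negative libraries and 0 in GFP-positive ones.

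**Figure D2:**
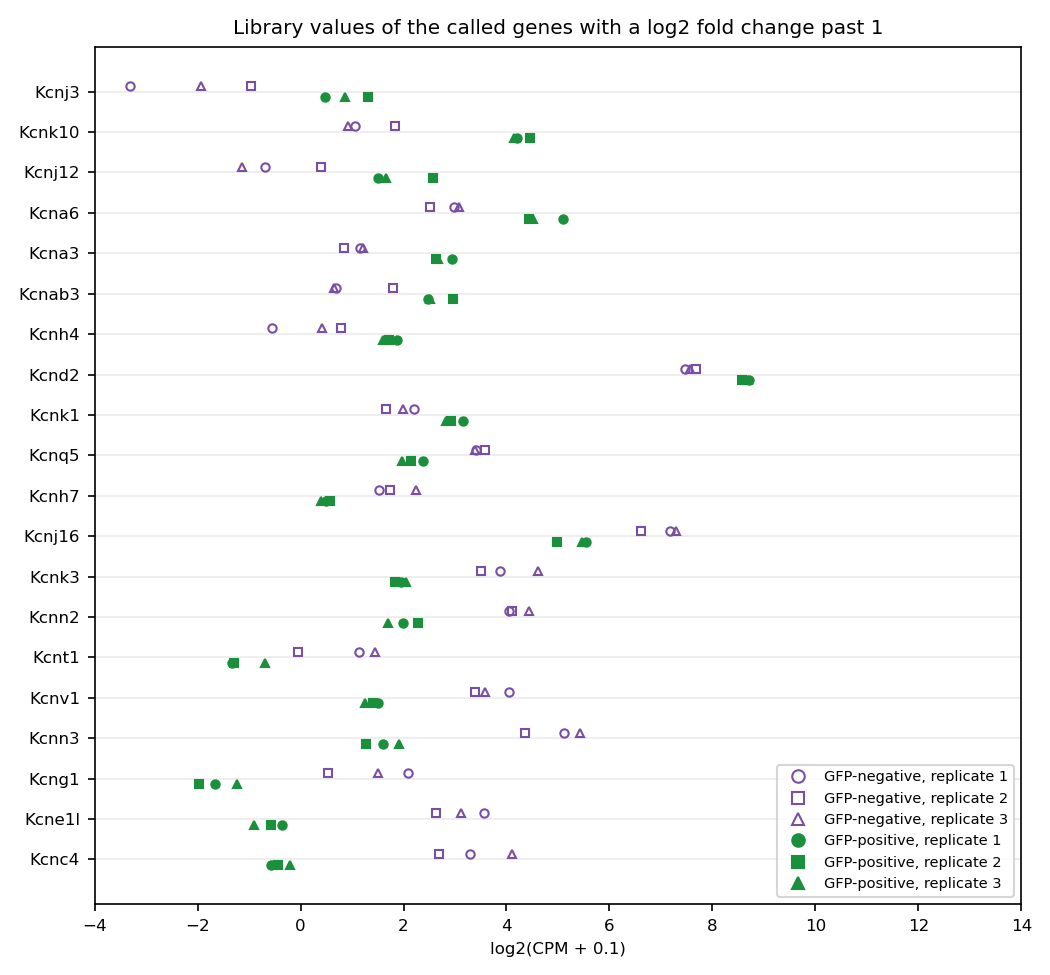
Values of each library as log2(CPM + 0.1) for 20 called Kcn genes with a log2 fold change past 1, from Kcnj3 at the top to Kcnc4 at the bottom (open purple symbols for GFP-negative, filled green symbols for GFP-positive, 1 shape per replicate). In each row the 3 green symbols lie all to the right or all to the left of the 3 purple ones.

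Of the Kcnf, Kcng, Kcnh, Kcns and Kcnv genes, 2 of 9 tested were higher and 3 lower (all tested genes: 26.1% and 29.2%). Kcnv1 (Entrez 67498), a silent subunit that modifies Shab channels, stood at 2.72, 2.56 and 2.28 CPM in cells with GFP, against 16.3 and 10.4 CPM in GFP-negative replicates 1 and 2, with replicate 3 between those (log2 fold change -2.35, SE 0.19, edgeR adjusted p = 3.36e-05). Kcng1, also a silent subunit, was at 0.218, 0.155 and 0.326 against 4.12, 1.34 and 2.75 CPM (log2 fold change -3.56, SE 0.50, adjusted p = 5.26e-04). Both modifiers were lower, whereas Kcnf1, another silent subunit, was higher by 0.68 and lost the call without replicate 1 and without replicate 3 (adjusted p = 0.111 and 0.0515).

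Among the ether-a-go-go genes, Kcnh4 was higher, at 3.57, 3.20 and 2.94 against 0.576, 1.63 and 1.23 CPM (log2 fold change 1.50, SE 0.34, edgeR adjusted p = 0.00603). Kcnh7 was lower, at 1.31, 1.39 and 1.22 against 2.79, 3.25 and 4.63 CPM (log2 fold change -1.44, SE 0.24, adjusted p = 0.00137). Kcnh2, which encodes the ERG channel of cardiac repolarisation and is the most abundant Kcnh gene per length here, did not pass the test, at 22.9 ± 2.44 against 20.6 ± 2.13 CPM (SD, n = 3; log2 fold change 0.15, adjusted p = 0.292). Kcnh5, Kcnh6 and Kcnh8 were not called either, with fold changes of -0.13, 0.22 and 0.95.

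Several Kcnq genes encode subunits of the M current, a slow current that limits repetitive firing in neurons, while Kcnq1 is known from heart and epithelia. Kcnq5 was lower, at 5.09, 4.33 and 3.81 CPM in cells with GFP, against 10.5, 11.8 and 10.4 CPM in cells without it (log2 fold change -1.31, SE 0.14, edgeR adjusted p = 1.37e-04). The libraries within each group were close. Kcnq3 did not pass the test, at 29.8, 33.2 and 25.9 against 22.2, 36.9 and 25.9 CPM (log2 fold change 0.07, SE 0.18, adjusted p = 0.775), and was higher by 0.31 without GFP-negative replicate 2 (adjusted p = 0.0456). The summed per-length level of the family was 4.24 ± 0.29 CPM per kb in GFP-positive cells, against 3.83 ± 0.60 in GFP-negative ones (SD, n = 3), and the ranges overlapped. Within it, Kcnq5 held 13.5% ± 1.13 against 37.3% ± 3.19, and Kcnq3 47.5% ± 4.20 against 49.7% ± 5.46.

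**Figure D3:**
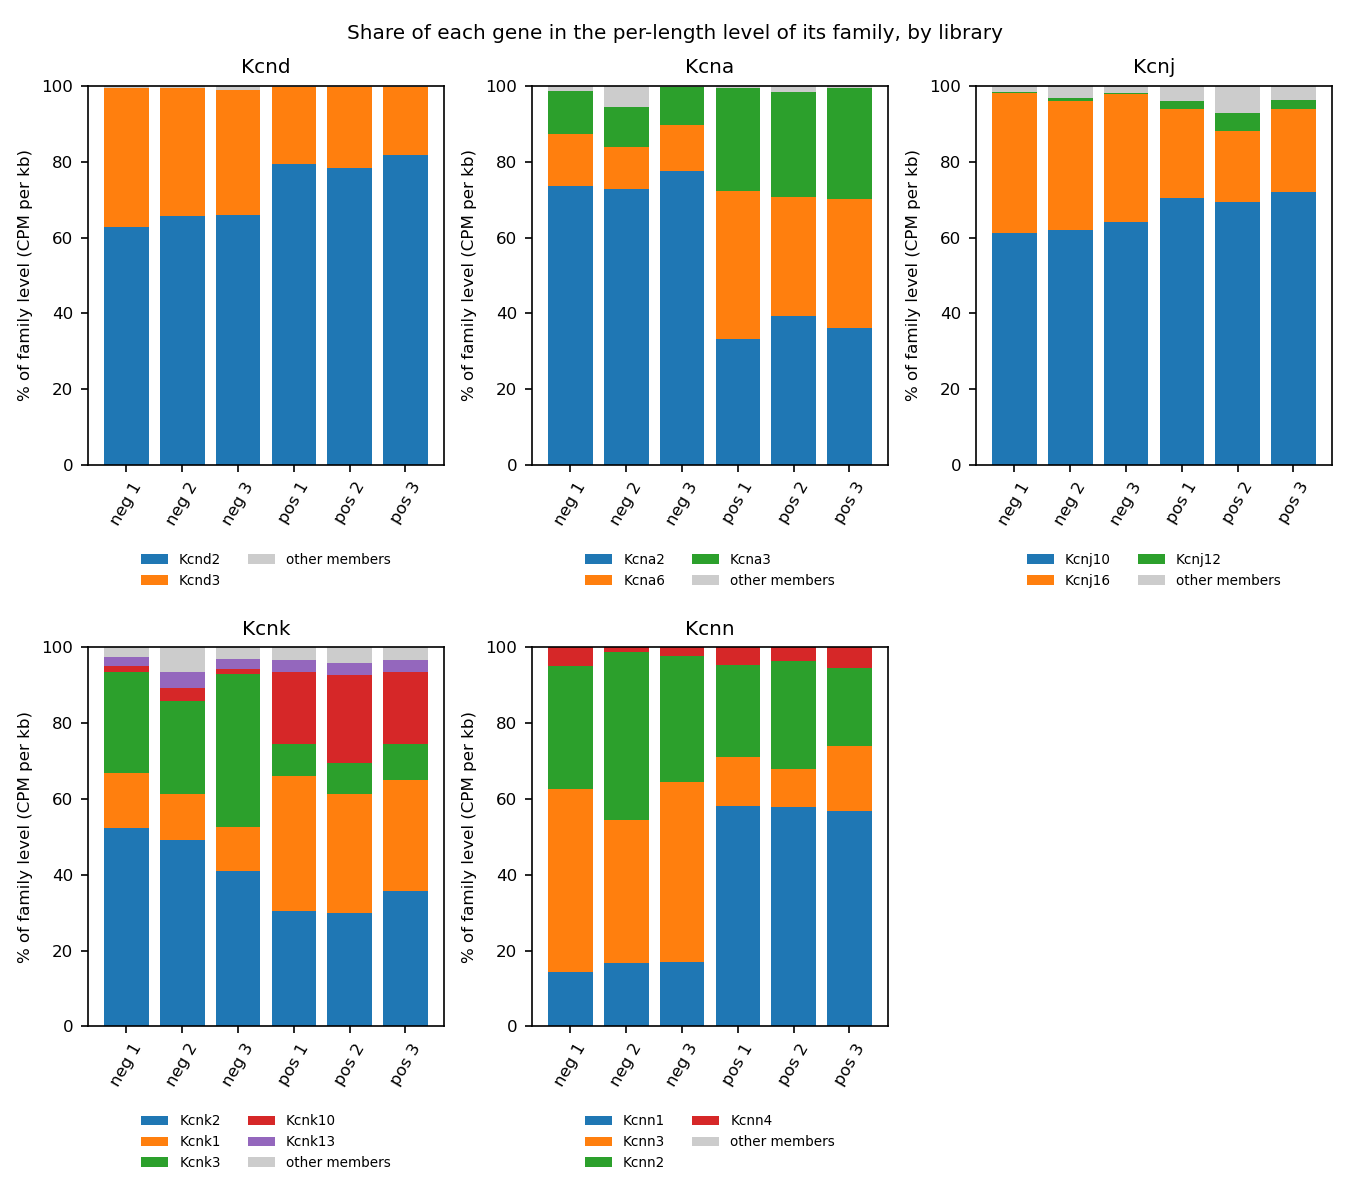
Percentage of each gene in the summed CPM per kb of its family, with 1 bar per library (neg, GFP-negative; pos, GFP-positive; 1 to 3, replicates) and 1 panel for each of the Kcnd, Kcna, Kcnj, Kcnk and Kcnn families. Genes that hold at least 3% on average in a group have a colour of their own. Kcna2 takes 36.2% of the Kcna level in GFP-positive cells, against 74.6% in GFP-negative ones, and Kcnn1 57.7% and 16.1% of the Kcnn level.

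Inward rectifiers were called in both directions, with 2 of 9 tested genes higher (Kcnj3 and Kcnj12) and 3 lower (Kcnj2, Kcnj10 and Kcnj16). The shares of all tested genes were 26.1% higher and 29.2% lower. Kcnj10 (Entrez 16513), the main inward rectifier of astrocytes that also occurs in oligodendrocyte lineage cells, was at 191, 161 and 198 CPM in cells with GFP, against 332, 246 and 411 CPM in cells without it (log2 fold change -0.85, SE 0.17, edgeR adjusted p = 0.0035). Kcnj16 (Entrez 16517), which joins Kcnj10 in a pH-sensitive channel, was at 46.4, 31.5 and 44.2 against 145, 97.8 and 158 CPM (log2 fold change -1.72, SE 0.20, adjusted p = 1.99e-04). In both genes GFP-negative replicate 2 was the lowest of its group and still lay above each GFP-positive library. The astrocyte markers had a median log2 fold change of -3.20, with Aqp4, a water channel of astrocyte endfeet, at 8.61, 19.7 and 15.6 against 134, 217 and 318 CPM. Kcnj2, a strong inward rectifier, was lower at few counts, 2.51 ± 0.29 against 4.41 ± 1.04 CPM (SD, n = 3; log2 fold change -0.82), and lost the call without replicate 3 (adjusted p = 0.123).

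The higher inward rectifiers were scarce in GFP-negative cells. Kcnj12, a strong inward rectifier like Kcnj2, stood at 2.75, 5.83 and 3.07 CPM in cells with GFP, against 0.516, 1.21 and 0.356 CPM in cells without it (log2 fold change 2.48, SE 0.48, edgeR adjusted p = 0.00268). Kcnj3, a subunit of channels opened by G proteins, stood at 1.28, 2.38 and 1.71 against 0.00, 0.414 and 0.162 CPM (log2 fold change 3.22, SE 0.70, adjusted p = 0.00501), and missed the threshold without replicate 3 (adjusted p = 0.0568). Without GFP-negative replicate 2, the log2 fold change was 4.47 for Kcnj3 and 3.16 for Kcnj12, and the lowest values over the leave-out fits were 2.63 and 2.07. Kcnj9, another subunit gated by G proteins, was not called (log2 fold change 0.51, adjusted p = 0.306), and was higher with the replicate block (0.54, adjusted p = 0.0402). Its partners Kcnj5 and Kcnj6 were below the filter. Kcnj11, the pore of metabolically gated channels, Kcnj4 and Kcnj14 were not called. The summed per-length level of the Kcnj genes was 48.0 ± 4.36 CPM per kb in GFP-positive cells, against 97.3 ± 22.9 in GFP-negative ones (SD, n = 3), with Kcnj10 at 70.6% ± 1.24 and 62.5% ± 1.45 of it.

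Of the tandem-pore leak channels, 2 of 6 tested genes were higher (Kcnk1 and Kcnk10) and 2 lower (Kcnk2 and Kcnk3). Over all tested genes, 26.1% were higher and 29.2% lower. Kcnk10 (Entrez 72258), the TREK channel opened by stretch and lipids, stood at 18.4, 21.9 and 17.7 CPM in cells with GFP, against 1.97, 3.47 and 1.78 CPM in cells without it (log2 fold change 3.00, SE 0.24, edgeR adjusted p = 2.82e-05). Its close relative Kcnk2 (Entrez 16526) went the other way, at 16.8, 15.8 and 18.9 against 35.5, 28.0 and 30.8 CPM (log2 fold change -0.87, SE 0.11, adjusted p = 3.22e-04). Neither gene overlapped between the groups, and Kcnk10 moved from rank 43 to rank 16 of the members per length.

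Kcnk3, an acid-sensitive leak channel, was lower, at 3.79, 3.44 and 4.05 against 14.6, 11.3 and 24.3 CPM (log2 fold change -2.15, SE 0.27, edgeR adjusted p = 2.97e-04). Kcnk1, a weakly rectifying leak channel, was higher, at 8.85, 7.51 and 6.96 against 4.49, 3.06 and 3.86 CPM (log2 fold change 1.03, SE 0.18, adjusted p = 0.00161). Kcnk5, another acid-sensitive member, missed the threshold although its groups did not overlap (log2 fold change -1.16, adjusted p = 0.0524). It passed with the replicate block (-1.21, adjusted p = 0.027), with upper-quartile scaling (adjusted p = 0.0490) and with limma-voom (adjusted p = 0.0491). Without GFP-positive replicate 2 it passed as well (adjusted p = 0.0440). Kcnk13 was not called. Per length, Kcnk2 held 47.5% ± 5.75 and Kcnk3 30.6% ± 8.52 of the Kcnk level in GFP-negative cells, and Kcnk2 32.1% ± 3.28, Kcnk1 32.1% ± 3.25 and Kcnk10 20.4% ± 2.58 in GFP-positive cells (SD, n = 3).

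Of the Kcnn, Kcnm, Kcnt and Kcnu genes, 1 of 9 tested was higher (Kcnmb4) and 3 were lower (Kcnn2, Kcnn3 and Kcnt1). The shares of all tested genes were 26.1% higher and 29.2% lower. Kcnn3 (Entrez 140493), a small-conductance calcium-activated channel, was at 2.91, 2.32 and 3.64 CPM in cells with GFP, against 34.5, 20.4 and 43.0 CPM in cells without it (log2 fold change -3.47, SE 0.29, edgeR adjusted p = 4.00e-05). Kcnn2 (Entrez 140492), of the same family, was at 3.87, 4.79 and 3.15 against 16.5, 17.1 and 21.6 CPM (log2 fold change -2.22, SE 0.18, adjusted p = 3.03e-05). Kcnn1, the remaining small-conductance gene, was not called, at 5.72, 5.98 and 5.36 against 4.52, 3.98 and 6.74 CPM (log2 fold change 0.16, adjusted p = 0.528). The summed level of the 4 Kcnn genes was 2.15 ± 0.099 CPM per kb in GFP-positive cells, against 6.89 ± 1.75 in GFP-negative ones (SD, n = 3), and Kcnn1 held 57.7% ± 0.64 of it in GFP-positive cells, against 16.1% ± 1.41 in GFP-negative ones. Kcnn4, the intermediate-conductance channel, had few counts and was not called (log2 fold change -1.04, adjusted p = 0.128). Without GFP-negative replicate 2, Kcnn4 was lower (-1.44, adjusted p = 0.00993).

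Kcnma1, the pore of the large-conductance calcium-activated channel, was not called, at 34.7, 34.7 and 30.4 against 38.2, 34.4 and 41.8 CPM (log2 fold change -0.20, SE 0.09, edgeR adjusted p = 0.103). It was lower without replicate 2 (-0.29, adjusted p = 0.0253). Kcnmb4, its brain-type beta subunit, was higher by a small amount, at 59.9, 60.1 and 58.8 against 48.3, 47.5 and 45.1 CPM (log2 fold change 0.34, SE 0.06, adjusted p = 0.00109). Kcnmb4os2, by its name on the opposite strand, was also higher, by 0.52, at 4.31 ± 0.45 against 3.00 ± 0.16 CPM (SD, n = 3), and the same limit on strand holds for this pair. Kcnt1, a sodium-activated channel, was at 0.300, 0.309 and 0.517 against 2.09, 0.860 and 2.62 CPM (log2 fold change -2.31, SE 0.47, adjusted p = 0.0035) and missed the threshold without replicate 1 (adjusted p = 0.0519). Kcnu1, a Slo-type pore known from sperm, was not called although its groups did not overlap (log2 fold change 0.85, adjusted p = 0.0984), and was higher without GFP-negative replicate 1 (1.31, adjusted p = 0.0264).

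Of the auxiliary genes, 3 of 8 tested were higher (Kcnab2, Kcnab3 and Kcnip3) and 1 was lower (Kcne1l). Over all tested genes, 26.1% were higher and 29.2% lower. Kcnip3 (Entrez 56461), a calcium-binding partner of Shal channels, stood at 423, 417 and 388 CPM in cells with GFP, against 270, 315 and 262 CPM in cells without it (log2 fold change 0.53, SE 0.08, edgeR adjusted p = 6.88e-04). It held 99.0% ± 0.11 and 98.6% ± 0.30 of the per-length level of the Kcnip genes (SD, n = 3), and Kcnip1 and Kcnip2 were not called. The beta subunits of Shaker channels were higher in 2 of 3 cases, with Kcnab2 at 12.7, 11.1 and 12.2 against 6.46, 6.15 and 5.96 CPM (log2 fold change 0.96, SE 0.11, adjusted p = 1.58e-04). Kcnab3 was at 5.48, 7.70 and 5.63 against 1.52, 3.38 and 1.46 CPM (log2 fold change 1.57, SE 0.33). Kcnab1 was not called (log2 fold change -1.07, adjusted p = 0.123), and was lower without replicate 3 (-1.97, adjusted p = 0.0366). Kcne1l (Entrez 66240), a small single-pass beta subunit now also named Kcne5, was at 0.681, 0.574 and 0.435 against 11.6, 6.06 and 8.59 CPM (log2 fold change -3.95, SE 0.30, adjusted p = 2.44e-05). The other 4 Kcne genes were below the filter. Kcnrg, a regulator of voltage-gated channels, was not called.

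Replicate 2, number 315, stood apart for several members. In 14 of the 56 tested members (25.0%) both of its libraries were the highest of their groups, as in 17.7% of all tested genes. Kcnt2, a sodium-activated channel, was at 1.93, 3.13 and 1.99 CPM in cells with GFP, against 0.910, 6.82 and 0.810 CPM in cells without it. It was not called (log2 fold change -0.27, edgeR adjusted p = 0.781), and without GFP-negative replicate 2 it was higher (1.46, adjusted p = 0.00422). Its sign also turned, with no call, under limma-voom (0.44) and with the replicate block (0.21). Kcna4, an A-type Shaker subunit below the filter, was also highest in the replicate 2 library of each group, at 0.191, 0.905 and 0.218 against 0.0910, 2.26 and 0.194 CPM. Sox10, a transcription factor of the oligodendrocyte lineage, was also highest in replicate 2, at 39.4, 93.6 and 45.4 against 2.34, 12.5 and 3.53 CPM. The part of Sox10 in these values was not tested. Among the other precursor markers, Gpr17, C1ql1 and Tnr were highest in replicate 2 of both groups, whereas Pdgfra, Cspg4, Olig1, Olig2 and Lhfpl3 were not. Among the 34 called members, GFP-negative replicate 2 was the GFP-negative library nearest to the GFP-positive ones in 23, as in 56.9% of the 8058 called genes. Without replicate 2, 17 members were higher and 19 lower.

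**Figure D4:**
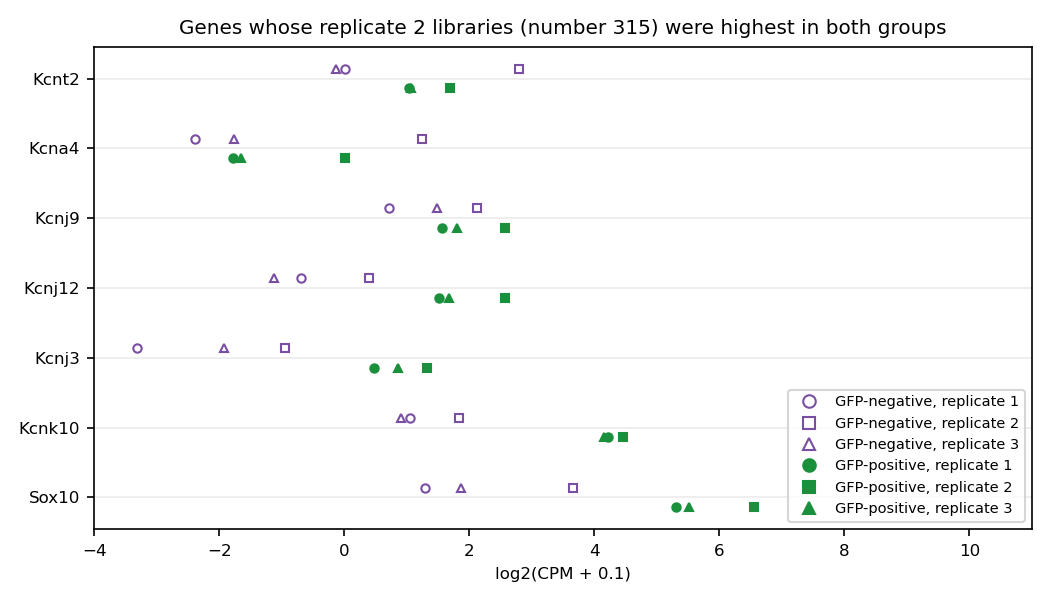
Library values as log2(CPM + 0.1) of 6 Kcn genes and Sox10 for which both replicate 2 libraries (squares, number 315) were the highest of their groups. For Kcnt2 and Kcna4 the GFP-negative replicate 2 library lies above every GFP-positive library, while for Kcnj12, Kcnj3, Kcnk10 and Sox10 all GFP-negative libraries lie below the GFP-positive ones.

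Genes that work with these channels were read from 3 short lists. Of 18 tested channel partners, 10 were higher and 4 lower, with a median log2 fold change of 0.65 (all tested genes: 26.1% higher, 29.2% lower, median -0.006). Dpp6 and Dpp10, transmembrane partners of Shal channels, were higher, with Dpp6 at 216, 220 and 233 against 119, 146 and 127 CPM (log2 fold change 0.77, SE 0.08, edgeR adjusted p = 1.12e-04) and Dpp10 higher by 2.84 (SE 0.62). Adam22, a receptor of Lgi proteins that sits with Shaker channels on axons, was at 115, 106 and 103 against 41.6, 55.6 and 46.0 CPM (log2 fold change 1.18, SE 0.11). Lgi1, its ligand, was higher by 1.53. Dlg2, a scaffold that clusters Shaker channels, was higher by 2.37, at 5.49 ± 0.90 against 1.06 ± 0.40 CPM (SD, n = 3). The lower partners were Lgi3, Dlg1, Dlg4 and Amigo1, an adhesion protein found with Shab channels, at -2.03, -0.33, -0.33 and -0.54. Dlg1 was at 84.5 ± 1.43 against 107 ± 6.52 CPM and Dlg4 at 104 ± 0.50 against 130 ± 15.1 CPM, both above Dlg2.

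Of 12 tested genes for pumps and cotransporters of potassium, 4 were higher and 6 lower, beside the same 26.1% and 29.2% of all tested genes. Atp1b2, a sodium pump beta subunit of glia, was lower, at 158, 164 and 153 against 852, 750 and 1032 CPM (log2 fold change -2.47, SE 0.11, edgeR adjusted p = 3.03e-06). The cotransporter Slc12a4 was lower (-0.74), while Slc12a2 was higher by 0.32.

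Of 7 tested genes for other channels that conduct potassium, 4 were higher and 2 lower, against those same shares of 26.1% and 29.2%. Among the higher ones were Hcn2, Hcn3 and Hcn4, which encode cation channels opened by hyperpolarisation. Hcn3 was at 15.8, 16.4 and 18.0 against 6.19, 7.33 and 5.35 CPM (log2 fold change 1.41, SE 0.13, edgeR adjusted p = 6.51e-05), and Hcn2 and Hcn4 were higher by 1.45 and 2.47. Tmem38a, a cation channel of the endoplasmic reticulum, was lower, at 10.7, 11.3 and 10.1 against 32.3, 24.9 and 34.7 CPM (log2 fold change -1.51, SE 0.13), as was Tmem175, a lysosomal potassium channel (-0.60).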

How the data were processed

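RNA of 6 sorted libraries, 3 GFP-negative and 3 GFP-positive, was sequenced after preparation with a stranded low-input kit, per the labels' protocols. TopHat2 2.1.1, featureCounts 2.0.0 and SAMtools 1.9 are listed in the submitters' processing notes, with mm39 as the build. For the annotation, the strand setting and duplicates, the choice is not given in the sources used here. The authors deposited raw read counts per gene, with no normalization.

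Counts were tested over all genes with edgeR 4.0.16 (R 4.3.3): TMM scaling, filterByExpr, quasi-likelihood F test, Benjamini-Hochberg adjustment, threshold 0.05. Standard errors were derived as |log2 fold change| over √F. On counts simulated for this comparison over 14447 genes, the test called 93 of 99 genes changed by a log2 fold change of 1. It called 98 of 98 changed by 2, and 7 of 14250 unchanged genes. The simulation gave every gene the same median dispersion (spread between libraries) and no effect of the replicate number. Few of its genes were changed, unlike in the data, so these rates need not hold for the data. Exon lengths came from GENCODE M21 (GRCm38) and matched 94 of 94 members. Named genes were Pdgfra and, in each class, the 4 with the smallest p and the 2 with the highest level, and in each partner list the 3 with the smallest p; others were named after their values were seen. The members and lists were chosen with earlier results of these data known. Libraries of a group were not copies of each other (chi-square over its degrees of freedom, 9.83 to 34.2). Deviations from the group mean correlated at 0.218, 0.355 and 0.159 for same-numbered libraries and at -0.306 to 0.128 for unlike-numbered ones. With 3 libraries per mean, positive same-numbered values push the unlike-numbered ones down. The numbers were taken to pair the samples, but the main fit has no block and its p-values are unpaired. The alternatives were RLE and upper-quartile scaling, no filter, a CPM of 1 in 3 libraries, DESeq2 1.42.0, limma-voom 3.58.1, the replicate block and fits without each library or number. Some genes that the rule names are not reported here; counts over classes and lists include them.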

Additional observations from a re-analysis of the deposited data

How the results depend on the processing

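The count of members called was 14 to 19 in each direction across all 16 alternatives, with 17 higher and 19 lower with the replicate block. Of the 34 called members, 27 kept call and direction wherever they were tested, 7 lost the call in at least 1 alternative and 0 reversed; Pdgfra kept its call in all. The replicate block ended the call of Kcnd1 and added those of Kcnc1, Kcnj9 and Kcnk5, and changed no other member's call. Class counts are small, so they moved with single genes. Lower Kcnq genes fell from 2 to 1 with no low-count filter and with DESeq2. Leaving out a library or a number gave 2 to 4 lower Kcna to Kcnd genes, 1 to 2 higher Kcnf to Kcnv genes, 1 to 2 higher and 1 to 2 lower Kcnq genes, 1 to 3 higher and 2 to 3 lower Kcnj genes, 2 to 3 lower Kcnk genes, 1 to 2 higher and 2 to 5 lower genes of the Kcnn, Kcnm, Kcnt and Kcnu class, and 1 to 2 lower auxiliary genes.

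Of the 22 members not called, 8 were called with their sign kept in at least 1 alternative. Kcnt2 was called higher, after its sign turned, without GFP-negative replicate 2 and without replicate 2. Members not called changed sign in 12 of 22 cases. Kcnd3 was at 0.00025 with no filter. Kcnj14 was at -0.014 with upper-quartile scaling, -0.042 with limma-voom and -0.015 with the replicate block, and Kcnt2 at 0.44 and 0.21 in the last 2. Leaving out a library or a number gave log2 fold changes from -0.041 to 0.059 for Kcnd3, -0.00995 to 0.28 for Kcnh2, -0.0804 to 0.31 for Kcnq3, -0.31 to 0.25 for Kcnh5, -0.19 to 0.47 for Kcnh6, -0.78 to 0.0202 for Kcnj11, -0.26 to 0.36 for Kcnj14, -0.059 to 0.81 for Kcnj4, -0.37 to 0.0072 for Kcnk13, -0.011 to 0.47 for Kcnn1, -0.70 to 1.46 for Kcnt2 and -0.015 to 0.75 for Kcnrg. The cause of these shifts was not tested. Depth limits the scarce members, of which 38 were too low to test.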
